A study of Mus musculus with 6 samples.

Results

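The 8 genes described here, of foreign compound metabolism in mouse ventricle, are the flavin monooxygenases Fmo1, Fmo2 and Fmo5, the cytochrome P450 genes Cyp2e1, Cyp4b1 and Cyp1b1, the aldehyde dehydrogenase gene Aldh1a1 and the epoxide hydrolase gene Ephx1. They are 8 of 24239 gene rows in the deposited table of FPKM values, which are fragments scaled for transcript length and library depth and so allow levels to be compared between genes. The genes were chosen by their sham against pacing values in these same mice, then taken by name, so their differences between the groups are given as a description, with no test. Ventricles came from 6 male C57BL/6 mice aged 8 to 10 weeks, 3 in the sham group, which was not paced, and 3 in the pacing group. No genetic change and no drug is named for either group, and the design gives 3 mice per group. Pacing used a bipolar catheter placed in the esophagus close to the atria, with stimuli 80 ms apart during 45 min and 120 ms apart for 3 min before and after, on 5 days and, after a rest of 2 days, on 3 more. The whole ventricle was taken, so that fewer cells of a type and less RNA per cell cannot be told apart.

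Enzymes of this kind add or expose a reactive oxygen group on small fat-soluble molecules, after which conjugating enzymes attach a soluble group for excretion. Flavin monooxygenases oxidise nitrogen and sulfur atoms with a bound flavin, whereas microsomal cytochrome P450 enzymes use a heme iron and take their electrons from the reductase encoded by Por. Epoxide hydrolases open reactive epoxides, and aldehyde dehydrogenases turn aldehydes into acids, among them retinal into retinoic acid. The liver holds most of this capacity, but lung, fat and vessel walls carry their own sets, and all of these can border on or lie within a heart sample.

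RefSeq promoter sequences (build GRCm38.p6, the assembly of mm10) were matched for 7 of the 8 genes, all but Fmo1. The 250 bases before the start are shown for Fmo2 and Cyp2e1, the genes whose groups did not overlap, and for Cyp1b1, the textbook target of the aryl hydrocarbon receptor. Capitals mark matches on either strand to motifs that did not overlap here. The core of the xenobiotic response element was searched as GCGTG, and the antioxidant response element as TGACNNNGC. The TATA box was searched as TATAAA. The CCAAT box was searched by the letters of its name.
Fmo2, chr1:162898759-162899008, minus strand: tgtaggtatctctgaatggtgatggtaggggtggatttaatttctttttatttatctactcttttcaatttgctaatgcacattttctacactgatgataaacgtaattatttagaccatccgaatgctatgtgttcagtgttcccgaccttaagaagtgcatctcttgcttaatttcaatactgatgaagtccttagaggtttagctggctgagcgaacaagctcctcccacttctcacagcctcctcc
Cyp2e1, chr7:140763569-140763818, plus strand: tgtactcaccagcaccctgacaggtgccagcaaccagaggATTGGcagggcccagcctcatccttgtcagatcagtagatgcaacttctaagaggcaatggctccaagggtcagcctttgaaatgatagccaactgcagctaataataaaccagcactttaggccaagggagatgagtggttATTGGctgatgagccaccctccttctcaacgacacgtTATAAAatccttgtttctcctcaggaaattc
Cyp1b1, chr17:79715062-79715311, minus strand: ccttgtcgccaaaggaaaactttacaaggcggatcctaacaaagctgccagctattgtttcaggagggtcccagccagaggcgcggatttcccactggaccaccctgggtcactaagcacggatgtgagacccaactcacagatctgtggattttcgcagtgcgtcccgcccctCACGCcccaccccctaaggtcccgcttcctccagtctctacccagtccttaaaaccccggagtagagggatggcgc
The Fmo2 stretch holds none of these letters and has a GC content of 39.6%. Cyp2e1 has TATAAA from 31 to 26 bases before the start and 2 matches to CCAAT. Cyp1b1 holds the receptor core from 76 to 72 bases before the start, on the strand opposite to the gene. That core was present in 1 of the 7 promoters and in 28.3% of 32544 mouse promoters of the same length. The antioxidant letters were in 0 of the 7 and 10.2% of all, TATAAA in 3 of the 7 and 12.3%, and CCAAT in 4 of the 7 and 33.8%. All of these are matches of letters and not measured sites. Besides Cyp2e1, TATAAA was matched in Fmo5 and Ephx1, far from the start, with first positions of -195 and -214. The start used for Fmo5 lies 215 bases past the deposited one, so most of its stretch is inside the deposited gene. Fmo5 is among the genes counted for TATAAA and for CCAAT, so no enrichment is read from either count.

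Ventricular muscle genes dominated every library, with Myl2 at 25481 to 39377 FPKM, but the libraries also differed in markers of other tissues. The adiponectin gene Adipoq had 27.0, 2.14 and 1.94 FPKM in the 3 sham mice, in the order 1, 2, 3, against 72.8, 36.2 and 28.6 in the 3 paced mice. The summed level of 11 lung and airway markers was 2.1 to 7.43 in sham mice and 6.24 in pacing 1, against 318 in pacing 2 and 1750 in pacing 3, and 5 of them were listed at the floor in all sham mice. The sum of 6 atrial markers was 426 in sham 2 and 5305 to 14673 in the other 5 mice. The adipocyte list summed to 1699 to 2099 FPKM in sham and 1912 to 2768 in paced mice. Most of that sum was Fabp4 alone, at 1715, 1648 and 1581 in sham and 1951, 1630 and 1502 in paced mice. The sum therefore says little of the other adipocyte markers. Of the markers tested, 10 of 10 adipocyte markers and 10 of 10 lung markers had a positive fold change. Of 9 liver markers 4 were at the floor in all 6 mice, the albumin gene Alb among them, while Ahsg stood at 3.95 to 25.3 FPKM and Apoa2 at 1.095 to 2.78, and the list summed to 5.82 to 18.8 in sham and 12.4 to 28.7 in paced mice. Of 5 esophagus markers 2 were at the floor in all mice, Krt5 and Krt13, while Krt14 reached 1.052 FPKM and the list summed to 0.327 to 1.13 in sham and 1.048 to 1.59 in paced mice. Estimated depth was 6276000 to 8908000 fragments per library. In a limma fit across the 11994 genes that averaged 1 FPKM or more, all 8 included, no gene passed the threshold of 0.05 on the adjusted p (0% of genes higher and 0% lower), so 0 of the 8 did, and the smallest limma adjusted p of any gene was 0.107. With p not adjusted, 620 genes passed 0.05 upward (5.17%) and 442 downward (3.69%).

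Fmo2, the form known from lung, was the flavin monooxygenase with the clearest separation. It stood at 25.5, 23.4 and 25.2 FPKM in sham 1, 2 and 3, against 38.1, 47.4 and 35.2 in pacing 1, 2 and 3. Each paced mouse was above each sham mouse, and the spread was wider among paced mice, with means of 24.7 ± 1.151 and 40.2 ± 6.37 (SD, n = 3 each). Its log2 fold change on log2(FPKM + 1) was 0.67 (SE 0.11), pacing minus sham, with 0.55 to 0.76 when 1 mouse was left out. Without pacing 2 and pacing 3, the libraries with lung transcripts, the value was 0.61, which rests on pacing 1 as the only paced mouse. The parts of lung and fat tissue in the Fmo2 difference were not tested. Fmo2 lies at chr1:162875047-162898712 in mm10, on the minus strand.

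**Figure D1:**
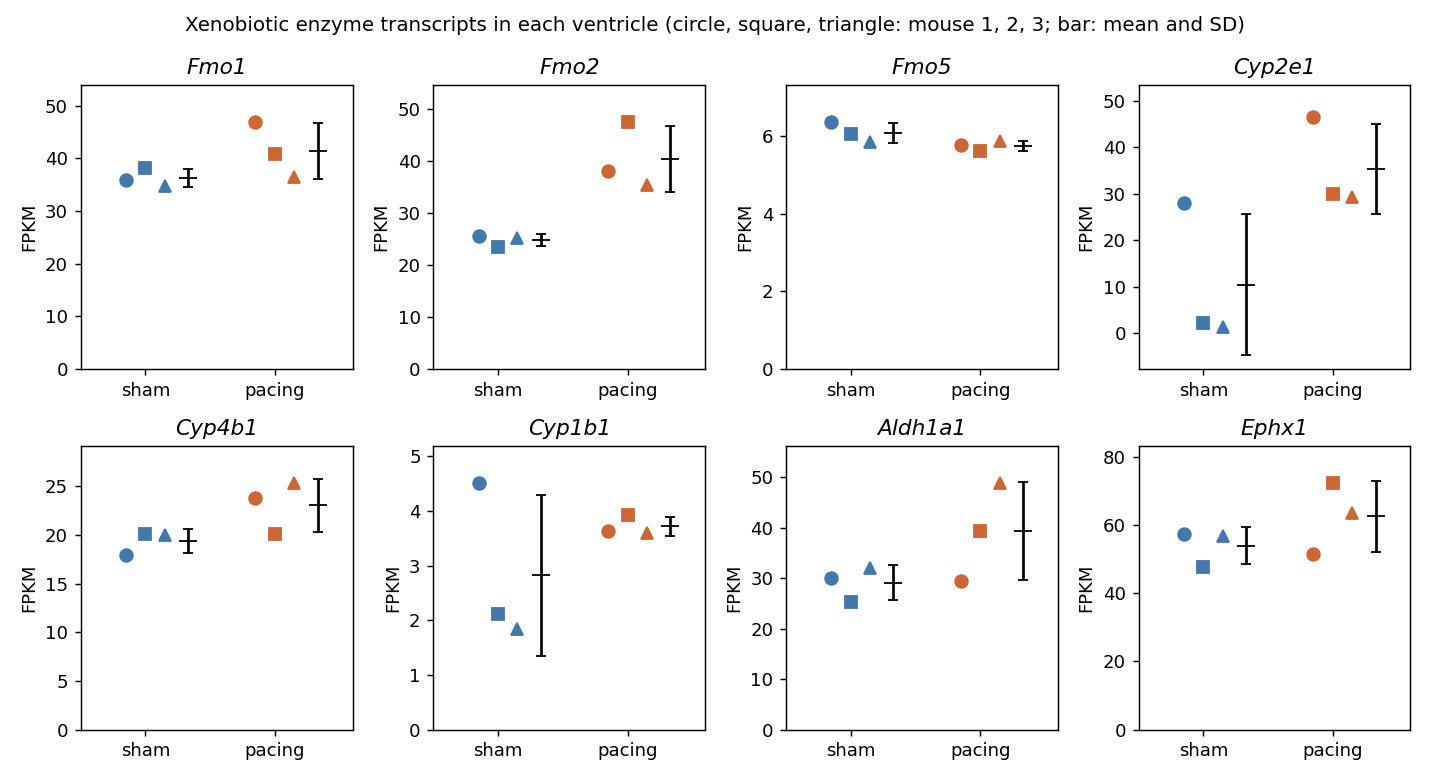
Level of each of the 8 genes in FPKM (vertical axes) for 3 sham mice (blue) and 3 paced mice (orange), with circles, squares and triangles for mouse 1, 2 and 3 and black bars for the group mean and SD. Fmo2 and Cyp2e1 are the panels in which all paced mice lie above all sham mice, for Cyp2e1 by a margin of 27.9 against 29.3 FPKM.

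Fmo1, which oxidises a broad range of drugs, is the neighbour of Fmo2, with 8498 bases between the deposited ends of the pair. It was at 35.9, 38.2 and 34.8 FPKM in sham mice and 46.9, 40.7 and 36.4 in paced mice. Pacing 1 and pacing 2 exceeded the sham mice while pacing 3 lay among them, with a log2 fold change of 0.18 (SE 0.10). The value was 0.36 without pacing 2 and pacing 3 and 0.08 without pacing 1, so pacing 1 decided its size. The gene lies at chr1:162829561-162866548, on the minus strand. Fmo5, whose product resembles a Baeyer-Villiger enzyme more than its relatives, was at 6.37, 6.04 and 5.86 in sham and 5.76, 5.61 and 5.87 in paced mice. These groups met at 5.86 and 5.87, with a log2 fold change of -0.07 (SE 0.09) that moved to -0.0048 when the libraries were rescaled to the same sum. It lies apart from the others, at chr3:97628804-97655287.

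Within each mouse the balance of the neighbouring genes differed as well. The ratio of Fmo2 to Fmo1 was 0.711, 0.612 and 0.724 in sham 1, 2 and 3 and 0.812, 1.16 and 0.967 in pacing 1, 2 and 3. A ratio within a library does not depend on how that library was scaled. Fmo1, Fmo2 and Fmo5 summed gave 65.8 to 67.8 FPKM in sham mice and 77.5 to 93.8 in paced mice.

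Of the other flavin monooxygenase genes, Fmo4, Fmo6 and Fmo9 lay under the filter. Fmo4 was at 0.0790, 0.156 and the floor of 0.01 FPKM in sham mice and 0.153, 0.478 and 0.416 in paced mice. An effective length of 1621 bases was fitted so that its values became whole multiples of the value of a single fragment. That gave 1, 2 and 0 fragments in sham mice and 2, 6 and 6 in paced mice. The longest transcript in the GENCODE annotation has 2683 bases, so these counts rest on the fitted length. The groups overlapped (exact two-sided permutation p = 0.2, where 3 against 3 allows no less than 0.1). Scaled for depth, the 14 paced fragments against 3 sham fragments gave a ratio of 4.15 (exact binomial 95% interval 1.16 to 22.5, counting error only). Fmo6 had at most 0.15 FPKM in any mouse and Fmo9 was at the floor in all.

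**Figure D2:**
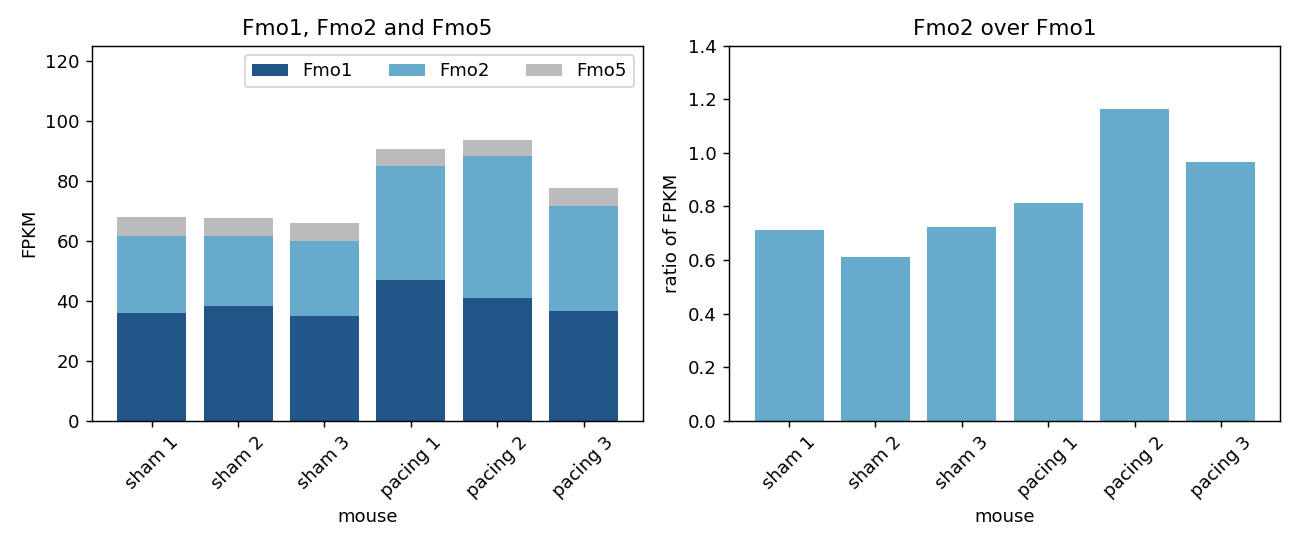
Stacked FPKM of Fmo1, Fmo2 and Fmo5 (left) and the ratio of Fmo2 to Fmo1 (right) in each of 6 mice, both on linear axes from 0. The paced bars are taller mainly in their Fmo2 part, and the ratio is 0.612 to 0.724 in sham mice and 0.812 to 1.16 in paced mice.

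Among the P450 genes, Cyp2e1, whose enzyme oxidises ethanol, acetone and other small molecules, had the widest range. It stood at 27.9, 2.099 and 1.32 FPKM in sham 1, 2 and 3, against 46.4, 29.9 and 29.3 in pacing 1, 2 and 3. Sham 1 lay next to pacing 2 and 3 and far from the other sham mice, so that the sham SD of 15.1 exceeded the sham mean of 10.4, while the groups did not overlap. The log2 fold change was 2.58 (SE 0.81), 3.72 without sham 1 and 1.90 without sham 3. Without sham 1 it was 1 of 99 genes that limma called higher (0.827% of genes tested, beside 0.00835% lower), and nothing is read from that call since the same contrast chose the gene. Adipoq placed the 6 mice in the same order as Cyp2e1, and so did the adipsin gene Cfd, at 110, 7.35 and 5.45 in sham and 168, 122 and 116 in paced mice. Of the other adipocyte markers, Car3 and Cidec had that order as well. Plin1, Retn, Lipe and Thrsp had sham 1 above pacing 3, and the orders of Plin4, Fabp4 and Lep differed further. The part of fat tissue in the Cyp2e1 difference was not tested. The gene lies at chr7:140763832-140774977.

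Cyp1b1, which metabolises estrogens and polycyclic compounds, followed sham 1 too. It stood at 4.52, 2.12 and 1.83 FPKM in sham mice and 3.64, 3.93 and 3.60 in paced mice, on about 57.1 to 175 fragments per library. Sham 1 was the highest of all 6 mice, and the paced values lay between it and the other 2 sham mice. The log2 fold change of 0.37 (SE 0.23) was 0.67 without sham 1, 0.25 without sham 2 and 0.19 without sham 3. Over the 6 mice its log2 level followed that of Cyp2e1 with Pearson r = 0.943 and Spearman rho = 0.60, given as a description in which the low values of sham 2 and sham 3 weigh heavily. The receptor gene Ahr was at 2.15 ± 0.610 in sham and 2.60 ± 0.165 FPKM in paced mice, and Cyp1a1, another target of that receptor, was at 0.105 to 0.457 in all mice.

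Cyp4b1, a P450 of lung and other tissues outside the liver, was at 18.0, 20.07 and 20.01 FPKM in sham 1, 2 and 3 and 23.7, 20.06 and 25.3 in pacing 1, 2 and 3. Pacing 2 kept the groups from separating, at a level just under that of sham 2. The log2 fold change was 0.24 (SE 0.10), with 0.17 without pacing 3, 0.33 without pacing 2 and 0.28 without both. The part of lung tissue in it was not tested. Cyp4b1 lies at chr4:115624728-115647705 and Cyp1b1 at chr17:79706953-79715041, both on the minus strand.

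Aldh1a1 and Ephx1 had a different pattern, with pacing 2 and pacing 3 on top. The highest mouse was pacing 3 for Aldh1a1 and pacing 2 for Ephx1. Aldh1a1, a cytosolic maker of retinoic acid, stood at 30.1, 25.3 and 32.0 FPKM in sham mice and 29.5, 39.4 and 48.9 in paced mice. Pacing 1 lay within the sham range. The log2 fold change of 0.40 (SE 0.17) was 0.03 without pacing 2 and pacing 3, the libraries with lung transcripts, and was 0.58 without pacing 1. Ephx1, the microsomal epoxide hydrolase, stood at 57.4, 47.6 and 56.7 in sham mice and 51.4, 72.3 and 63.6 in paced mice. Again pacing 1 lay within the sham range, and the log2 fold change of 0.20 (SE 0.13) turned to -0.06 without pacing 2 and pacing 3. Mesothelial markers, 6 of 6 with a positive fold change, had a similar order, with sums of 61.6, 20.7 and 32.5 in sham 1, 2 and 3 and 40.2, 82.2 and 84.2 in pacing 1, 2 and 3. Fibroblast markers, 10 of 10 with a positive fold change, had sums in the same order as the mesothelial sum. These were 2107, 1525 and 1691 in sham mice and 1932, 2366 and 2558 in paced mice. Most of the fibroblast sum was Gsn and Dcn, which with Col1a1, Lum and Pdgfra were highest in pacing 3. Pi16, Clec3b and Mfap5 were highest in pacing 1 and lowest of the paced mice in pacing 3, and Dpt and Tcf21 were highest in sham 1. Aldh1a1 lies at chr19:20601982-20643462 on the plus strand and Ephx1 at chr1:180989556-181017495 on the minus strand. Atrial markers, 6 of 6 with a positive fold change, summed to 12689, 426 and 5305 in sham mice and 5751, 14673 and 10497 in paced mice. Among them Bmp10 stood at 67.8, 0.220 and 38.6 in sham mice and 38.1, 16.8 and 28.7 in paced mice, so its positive sign rests on sham 2. The parts of lung, mesothelial, fibroblast and atrial RNA in these differences were not tested. The soluble epoxide hydrolase gene Ephx2, which acts on fatty acid epoxides, was more abundant at 255 ± 31.3 and 248 ± 22.0 FPKM, with a log2 fold change of -0.04 (SE 0.11, limma adjusted p = 0.949) that was positive after rescaling to the same sum (0.04) and after quantile normalization (0.01). The ratio of Ephx1 to Ephx2 was 0.187 to 0.256 in sham and 0.189 to 0.314 in paced mice.

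**Figure D3:**
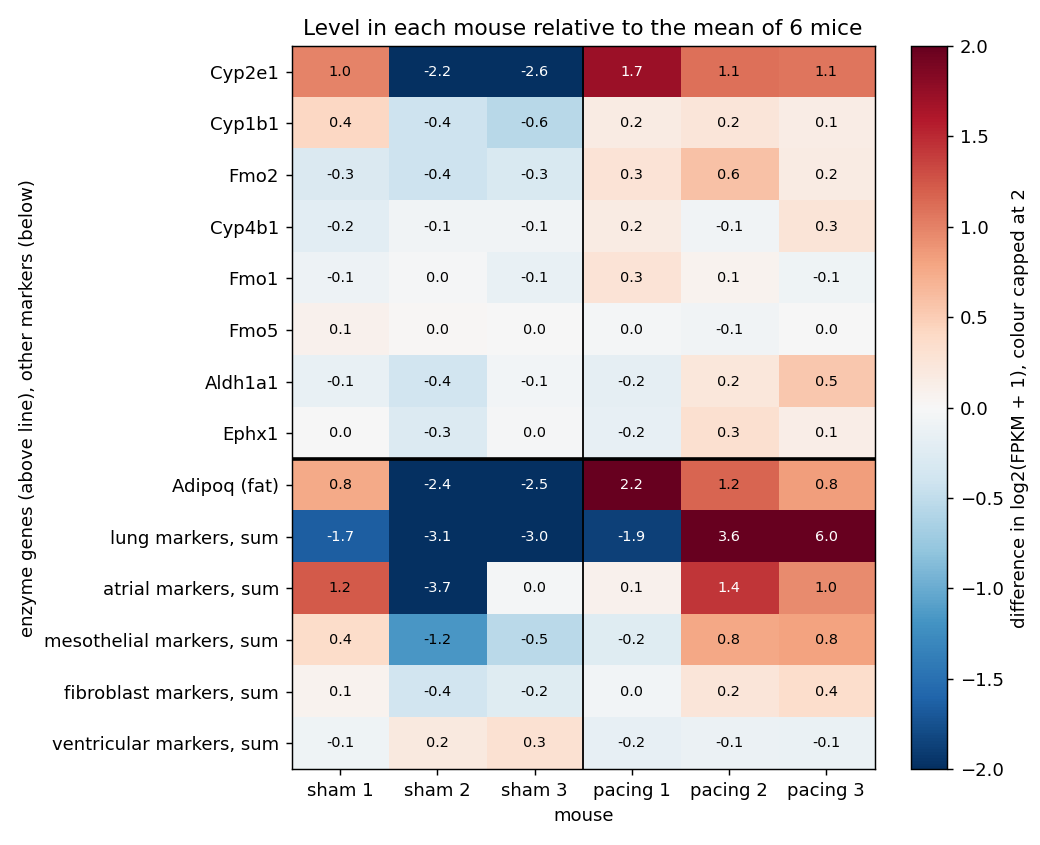
Difference of each mouse from the mean of the 6 mice on log2(FPKM + 1), as colour and number, for the 8 genes (above the line) and for Adipoq and summed marker lists (below it). Cyp2e1 and Cyp1b1 are higher in sham 1 than in sham 2 and sham 3. So are Adipoq and the lung, mesothelial, fibroblast and atrial sums. Aldh1a1 and Ephx1 are highest in pacing 2 and pacing 3, as the lung, mesothelial and fibroblast sums are.

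Counted together, 7 of the 8 genes had a positive fold change, and 2 of 8, Fmo2 and Cyp2e1, had all paced values above all sham values, a pattern shown by 6.24% of genes tested. For 0 of 8 were all paced values below, against 6.97% of genes tested. The authors' deposited table called 3 of 8 higher at a q under 0.05, namely Fmo2, Cyp2e1 (both q = 0.00328) and Aldh1a1 (q = 0.0235), and 0 of 8 lower, where it called 1.23% and 0.152% of all rows. These counts come from the contrast that chose the genes, and nothing is read from them. In sham mice the order of mean levels was Ephx1 (53.9 FPKM), Fmo1 (36.3), Aldh1a1 (29.1), Fmo2 (24.7), Cyp4b1 (19.3), Cyp2e1 (10.4), Fmo5 (6.09) and Cyp1b1 (2.82). In that order the sham ranges of Aldh1a1 and Fmo2 overlapped, as did those of Cyp4b1 and Cyp2e1 and those of Cyp2e1 and Fmo5, and the other neighbours were apart. In paced mice Fmo2 (40.2) lay beside Fmo1 (41.4) and Aldh1a1 (39.3), with overlapping ranges. The coefficient of variation among sham mice was 4.198% to 6.22% for the 3 Fmo genes and Cyp4b1, 10.1% and 11.8% for Ephx1 and Aldh1a1, 52.2% for Cyp1b1 and 145% for Cyp2e1.

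**Figure D4:**
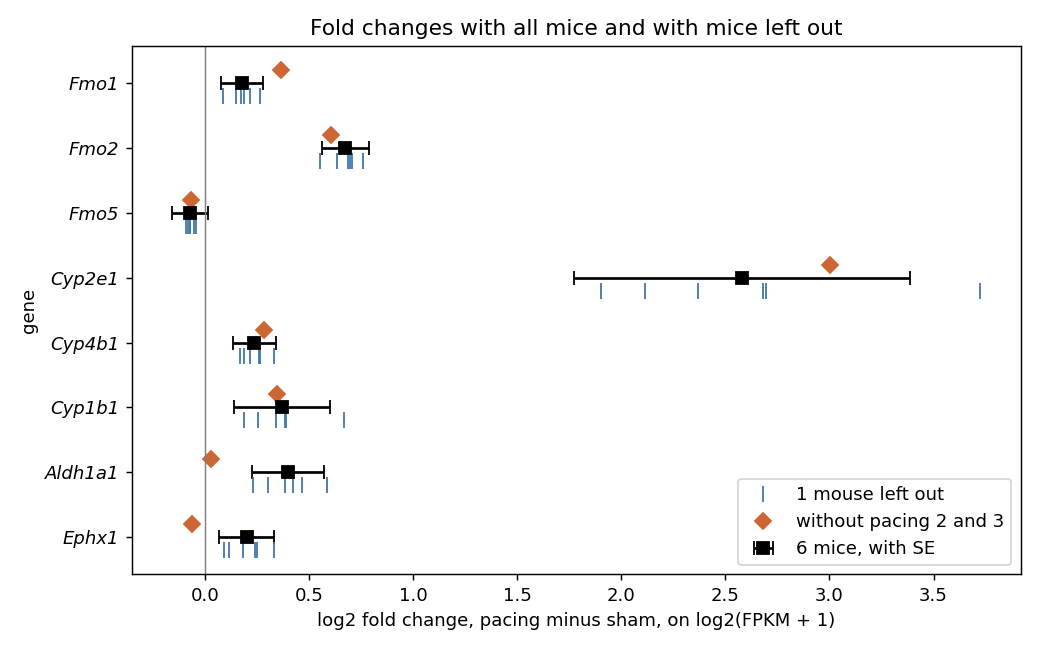
Log2 fold change of each gene on log2(FPKM + 1) with its SE for 6 mice (black squares), with each mouse left out (blue ticks) and without pacing 2 and pacing 3 (orange diamonds). Fmo2 stays between 0.55 and 0.76, Cyp2e1 spreads from 1.90 to 3.72, and Aldh1a1 and Ephx1 move to 0.03 and -0.06.

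The genes most alike over the 6 mice were sought among 8174 genes that averaged 5 FPKM or more, by Pearson r of log2(FPKM + 1), and are listed as a description. For Fmo2 they were Pbxip1 (r = 0.986, rho = 0.943), Por (r = 0.981, rho = 0.829) and Iffo1 (r = 0.981, rho = 0.943). For Cyp2e1 they were Cfd (r = 0.999, rho = 1.0), Thoc1 (r = 0.994, rho = 0.943) and Adipoq (r = 0.991, rho = 1.0). Ephx1 was closest to the mitochondrial aldehyde dehydrogenase gene Aldh1b1 (r = 0.990, rho = 1.0), then to Cygb, which encodes cytoglobin, and Mapk3. Fmo5 was closest to Pxdn, Zfp280d and the endothelial receptor gene Tek (r = 0.996, 0.990 and 0.977). The nearest genes were Kansl3, Itsn1 and Cln6 for Fmo1, Exosc3, Cgrrf1 and Parp2 for Cyp4b1, Emilin1, Ptprs and Vasn for Cyp1b1, and Lsm1, Gja4 and Bcl2l12 for Aldh1a1, with r from 0.957 to 0.994. With 6 mice and 8174 genes searched, these values of r carry no test.

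Of 260 other genes in 11 lists of foreign compound and retinoid metabolism, 117 could be tested, and limma called 0 of them in either direction. With p not adjusted, 20 passed 0.05 upward and 2 downward, where 5.17% and 3.69% of all genes tested did. The median log2 fold change was 0.07 with 75 of 117 positive, beside -0.01 and 5778 of 11994 over all genes. Rescaling to the same sum moved that split to 28 and 1 (969 and 148 over all genes), and centring on medians to 18 and 3 (514 and 609). Without the filter limma called 0.0248% of all genes higher, and without pacing 1 it called 0.0583% higher and 0.00833% lower, with 0 of the 8 among either. By list, the median was highest in the P450 families (0.25, 9 of 11 positive) and lowest in the drug efflux transporters (-0.08, 2 of 6 positive).

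The reductase gene Por, the electron source of the microsomal P450 enzymes, stood at 23.0, 23.6 and 22.6 FPKM in sham and 29.7, 33.8 and 27.8 in paced mice. All paced mice were above all sham mice, with a log2 fold change of 0.38 (SE 0.09, limma adjusted p = 0.389). Cytochrome b5, from Cyb5a, another electron carrier, was at 142 ± 13.6 and 168 ± 5.66 (limma adjusted p = 0.51), also without overlap, and Cyb5b at 26.1 ± 1.65 and 24.8 ± 0.795. Of the 4 electron donor genes 3 had a positive fold change.

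Other P450 genes with the smallest p were Cyp4v3, a fatty acid hydroxylase, with 2.93 ± 0.644 in sham and 4.07 ± 0.115 in paced mice (limma adjusted p = 0.492), and the club cell enzyme gene Cyp2f2. Cyp2f2 stood at 0.0774, the floor and 0.193 in sham mice and 0.449, 2.58 and 19.5 in pacing 1, 2 and 3, which is the order of the lung markers among paced mice. On the lower side were Cyp4f16 and Cyp2j6, with log2 fold changes of -0.19 and -0.08. Of the aldehyde dehydrogenases 12 of 17 were positive, and those with the smallest p were Aldh1a7 at 0.484 ± 0.637 and 2.05 ± 0.384 and Aldh3a1 at 1.02 ± 0.407 and 2.37 ± 1.048 (limma adjusted p = 0.39 and 0.484). Aldh1a7 is a close copy of Aldh1a1, and fragments could be split between them, so its value is uncertain. Aldh5a1 and Aldh18a1 had log2 fold changes of -0.13 and -0.15 with overlapping groups. With 1 mouse left out these ranged from -0.21 (without sham 1) to -0.07 (without sham 2) for Aldh5a1 and from -0.34 (without sham 2) to -0.01 (without sham 1) for Aldh18a1.

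Among other oxidases, reductases and esterases 15 of 23 were positive. The carboxylesterase gene Ces1f was at 0.879 in sham 1, at the floor in the other sham mice, and at 3.68, 2.07 and 1.67 in paced mice (limma adjusted p = 0.311). The carbonyl reductase gene Cbr2, known from lung, was at 36.4, 29.1 and 27.4 in sham and 60.5, 48.7 and 122 in paced mice (a log2 difference of 1.19, limma adjusted p = 0.39). Nqo2 and Akr7a5 were lower in every paced mouse, at 19.0 ± 1.33 and 16.1 ± 0.605 and at 28.4 ± 0.385 and 26.2 ± 1.1497. Of 27 conjugating enzymes 15 were positive, and those with the smallest p were Gsta3 (log2 fold change 0.69, SE 0.12, limma adjusted p = 0.287) and Gstt1 (0.36, SE 0.11). Gstp1 and Gstp2, near-identical copies whose fragments may be split, had log2 fold changes of -0.55 and -0.33, and Gstp1 stood at 92.0 in pacing 1 against 51.7 and 54.6 in pacing 2 and 3.

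Of 11 regulators 7 had a positive fold change. Their median log2 fold change was 0.02, and Nfe2l2, which encodes the transcription factor Nrf2, was at 36.3 ± 1.22 and 38.1 ± 1.43 FPKM. Ahr (0.21) and its repressor gene Ahrr (0.16) had positive log2 fold changes, and Rxrg and Arnt -0.17 and -0.05, the last turning to 0.02 after rescaling to the same sum. Nr1i3, the constitutive androstane receptor, was at the floor or up to 0.113 FPKM, and Nr1i2 and Hnf4a were at the floor in all mice. Of 9 Nrf2 targets 7 were positive with a median of 0.08, with Osgin1 and G6pdx at 0.35 and 0.22 (0.16 and 0.09 without sham 2) and Gclm and Me1 at -0.17 and -0.06, the last turning to 0.02 after rescaling. Of 10 retinoid genes 7 were positive, with Rbp4, the plasma retinol carrier that fat also makes, at 3.35, 0.166 and the floor in sham and 3.89, 6.09 and 5.14 in paced mice (limma adjusted p = 0.399). Adh1, which oxidises retinol, was at 30.8 ± 2.68 and 37.2 ± 3.22, and Cyp26b1, which degrades retinoic acid, and Rdh10 had log2 fold changes of -0.34 and -0.06. The Cyp26b1 value was -0.69 without pacing 2 and -0.10 without sham 3. Efflux transporter genes Abcb1a, Abcc1, Abcb1b and Abcg2 had -0.11, -0.08, 0.09 and 0.01, the last negative after centring (-0.0136) and quantile normalization (-0.0028).

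**Figure D5:**
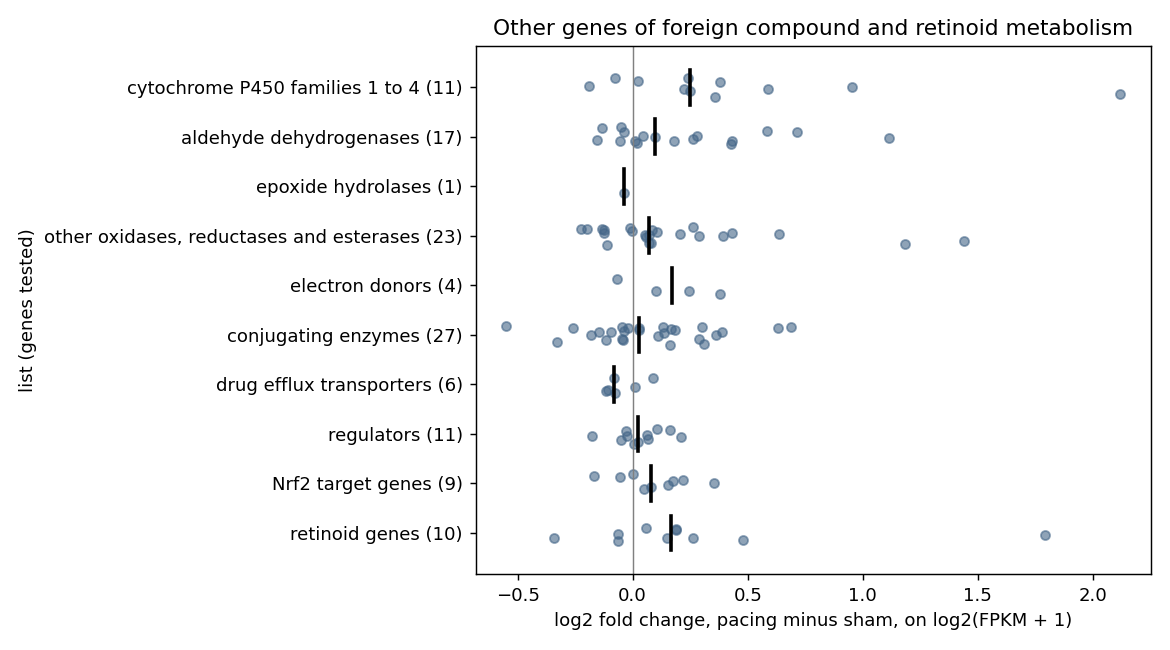
Log2 fold change on log2(FPKM + 1) of each tested gene (points, spread vertically only for view) in 10 lists that leave out the 8 genes, with the list median as a black bar. Most points lie between -0.5 and 0.5, and the farthest on the right are Cyp2f2, Rbp4 and Ces1f.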

How the data were processed

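Polyadenylated RNA of 3 sham and 3 paced ventricles gave stranded libraries, read from both ends over 151 bases (labels' protocols). The authors deposited FPKM per gene and mouse, with 0.01 in place of 0, and a comparison table with FPKM per group and a q-value, per the file headers. Per the submitters' processing notes, the genome was mm10 and the tools included Bowtie2 2.2.6 and TopHat2 2.1.0, FastQC 1.0.0, and both Cuffdiff and Cufflinks. The annotation and the strand setting were "not given in the sources used here", so antisense overlaps were not separated. The authors' fold column was not used. Deposited starts count from 0 (51.3% equal a RefSeq start after adding 1, 2.94% as given), and 1 was added. One gene row with a failed estimate was left out.

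The test, two-sided, was limma 3.58.1 (R 4.3.3) on log2(FPKM + 1) for the 11994 genes averaging 1 FPKM or more, with group alone in the model, a trended eBayes and Benjamini-Hochberg adjustment, after a check on simulated data. Depth came from the steps of low values, 41 to 64 per library, among 644 genes with 1 exon. Depth and a shortening of the lengths by 166 bases were fitted so that these values came out whole (100% within 0.05 of a fragment). An FPKM of 1 on 2 kb stands for 12.55 to 17.82 fragments, and sums of FPKM were 658700 to 756535. Libraries shared at most 0.0135% of values, so none is a copy. The members and lists were chosen with earlier results of these data known. Named were the members, Fmo4, Fmo6, Fmo9, Ahr, Nfe2l2, Nr1i3, Por, marker genes, up to 2 genes per direction with the smallest p in each list, and the 3 genes most like each member. Others were chosen after their values were seen. A result on 1 gene is not reported here. Other settings tried were a pseudocount of 0.1 or 0.5, a filter at 5 or none, 3 scalings, eBayes without a trend, a replicate block, an adjusted p under 0.1 and each mouse left out. The fit without pacing 2 and pacing 3 was added after seeing the data.

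Of the marker lists not given elsewhere, macrophage markers (6 of 6) had positive fold changes, and endothelial (0 of 8) and ventricular markers (0 of 7) none. Brown fat markers had 2 of 4 positive, liver markers 1 of 2, and esophagus markers 0 tested. The positive brown fat genes were Ucp1 and Cidea, and the negative ones Cox7a1 and Cox8b, at 2746 to 5713 FPKM. Ucp1 stood at 21.1, 3.34 and 1.08 FPKM in sham mice and 48.6, 30.2 and 1.06 in paced mice. Cidea stood at 48.6, 40.7 and 39.3 in sham mice and 100, 51.3 and 37.3 in paced mice.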

Additional observations from a re-analysis of the deposited data

How the results depend on the processing

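Over all genes the count called by limma was 0, and it was 6 without the filter on low values and 7 with a replicate block. Leaving out 1 mouse gave 0 to 100 genes, with 100 without sham 1 (99 higher and 1 lower), 8 without pacing 1 and 1 without pacing 3. Of the other xenobiotic genes 0 were called, 1 without the filter (Crabp1, at the floor in sham mice and 0.195 to 0.215 FPKM in paced mice), and 0 to 3 with 1 mouse left out. These were Ces1f, Aldh1a7 and Rbp4 without sham 1 (limma adjusted p = 0.0234, 0.0145 and 0.003) and, lower, Gstp1 without pacing 1 (0.0434). Whether the replicate numbers pair the mice is not known. Deviations from the group means correlated at -0.125, -0.0225 and -0.0201 for same-numbered mice, and at -0.100 to 0.113 for the other pairs. Centring on the group means makes such values balance around 0, so they cannot settle the pairing. With the replicate block 0 of the other xenobiotic genes were called, and the members' fold changes are the same by construction. Of the members, Cyp2e1 alone was called in any alternative, without sham 1. Nothing is read from that call, since the same contrast chose the gene. The 8 members kept their direction in all alternatives run, except Ephx1 without pacing 2 and pacing 3. Like the block, a changed filter cannot alter a member's fold change, so the direction under these settings was fixed in advance. At a filter of 5 Cyp1b1 was not tested.

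Without pacing 2 and pacing 3, which leaves 1 paced mouse assumed to vary like the sham mice, direction turned for Abcg2 (-0.1554), Aldh5a1 (0.0056), Cyp4f16 (0.0477), Ephx2 (0.1021) and Rdh10 (0.0132). Rescaling to the same sum turned Arnt (0.0202), Cyb5b (0.0066), Ephx2 (0.0389) and Me1 (0.0207), centring turned Abcg2 (-0.0136), and quantile normalization Abcg2 (-0.0028) and Ephx2 (0.0084). With 1 mouse left out, the range crossed 0 for Abcb1b (-0.0042 to 0.2208), Abcg2 (-0.1167 to 0.0943), Arnt (-0.0876 to 0.0134), Cyp4f16 (-0.3096 to 0.0192), Ephx2 (-0.1277 to 0.0488) and Rdh10 (-0.1449 to 0.0031). The cause was not tested. Values under about 1 FPKM rest on few fragments.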

Other observations

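Of the other xenobiotic genes, 143 lay under a mean of 1 FPKM, and 90 of these were at the floor in all 6 mice. Ugt1a6a, which attaches glucuronic acid to phenols, stood at 0.405, 0.0840 and 0.124 FPKM in sham mice and 0.490, 1.14 and 2.11 in pacing 1, 2 and 3, without overlap and, among paced mice, in the order of the lung markers. Cyp2a5, a P450 of liver and airway, was at 2.97 in pacing 3, at 0.248 in sham 1 and at the floor in the other 4 mice. The paraoxonase gene Pon1 stood at 0.856, 0.188 and the floor in sham mice and at 2.57, 1.34 and 0.750 in paced mice, an order close to that of Adipoq. Cyp3a13 was lower in every paced mouse, at 0.515 to 0.597 in sham and 0.463 to 0.488 in paced mice. These genes were chosen after their values were seen and were not tested.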
